A study of Sus scrofa with 13 samples.

Results

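Muscle gene expression was compared between Pietrain pigs with high and with low weight of loin, 4 pigs against 3. These 7 pigs were taken from the 13 of the series by their breed and loin weight labels, and all 12065 of 25322 Ensembl genes that passed an expression filter in them were described. The 7 pigs were females of 6 months, and the tissue was 1 muscle, the longissimus lumborum, preserved directly after slaughter. Per the study's methods, they were unrelated, were housed and fed alike, reached a set body weight before slaughter and were picked from a larger population for extreme loin weights after dissection. No pig was treated and no gene was altered, so the groups differ by their label, and loin weight is the only trait that the labels give for each pig. The other 6 pigs of the series were of the Hampshire breed, 3 with high and 3 with low loin weight.

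The loin muscle of the pig consists mostly of fast, glycolytic fibres with a smaller share of slow, oxidative fibres, and each fibre type carries its own myosin and troponin isoforms. Its mass reflects protein synthesis, driven by insulin-like growth factors through AKT and mTOR, against protein breakdown by the proteasome under FOXO factors, while myostatin restrains growth. The tissue also holds fibroblasts that lay down collagen, fat cells, vessels and immune cells. In such bulk RNA, fewer cells of a type and less RNA per cell cannot be told apart.

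Libraries held between 11312755 and 20134612 counted reads, and the deepest was that of high pig 7. Levels are given as TMM-normalized counts scaled to library size (CPM), and fold changes as log2 of high against low loin weight, so that positive values are higher in pigs with high loin weight. All 6 skeletal muscle markers that matched a gene (ACTA1, CKM, DES, MYH1, MYH7 and MYLPF) were detected, and they summed to between 98947 and 176340 CPM in the high and between 116571 and 130263 CPM in the low pigs. The summed levels of defining markers of other cells overlapped between the groups for every type except satellite cells. That sum was MYF5 alone, since PAX7 had no matched gene, and it was below 2 CPM in every pig. MYF5 passed the filter only through high pigs, so this separation is no support for a difference. The overlapping sums included those of fibroblasts (691 to 1803 CPM against 710.1 to 1216 CPM) and of endothelium (76.5 to 131 CPM against 51.2 to 146 CPM). Only part of the markers matched, such as 2 of 4 for endothelium, 2 of 5 for fat cells, 3 of 4 for macrophages and 1 of 2 for tendon. The 13 mitochondrially encoded genes took 14.4% ± 1.98 (SD, n = 4) of the counts in the high and 16.8% ± 0.870 (SD, n = 3) in the low pigs. In an exact permutation test on both sides that difference gave p = 0.114, where the smallest p that 35 splits allow is 0.0286. Depth, the number of genes detected and the share of the 10 leading genes gave p between 0.114 and 0.943 in the same exact permutation test.

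No gene passed the threshold for a differentially expressed gene (DEG), defined by a difference of 1.2-fold or more with a p below 0.05 after Benjamini-Hochberg adjustment, which leaves 0% of the 12065 genes. The smallest adjusted p-value was 0.939 (edgeR's quasi-likelihood test). The study, which used DESeq2 with the same thresholds, reports many DEGs between its Pietrain groups, and the cause of that difference was not tested. At an unadjusted p under 0.05, 229 genes (1.9%) were higher and 169 genes (1.4%) lower in pigs with high loin weight. In this fit these 398 genes (3.3%) together are fewer than a threshold of 0.05 lets through by chance. The 4 high pigs all lay above the 3 low pigs for 284 genes (2.35%) and all below them for 263 genes (2.18%). A random split would separate the pigs in a given direction for about 1 in 35 genes, a proportion of 0.0286, and neither share exceeds it. Separate groups in a single gene below are thus a description and no support. DESeq2 called 1 gene, which was lower, and counted 277 higher and 251 lower genes at an unadjusted p under 0.05. Hence every Pietrain fold change from edgeR below is a measured value that did not pass the test across genes. These counts rested on single animals, as leaving out low pig 5 gave 118 higher and 88 lower of 12422 genes. Leaving out high pig 6 gave 774 and 426 of 11813, in each case with no DEG. The comparison with chance depends on the fit. The counts together exceeded that level without high pig 6, without low pig 3 (444 and 314 of 12430) and in 1 fit over all 13 pigs (379 and 348 of 12831). They also exceeded it with sample quality weights in limma voom (641 and 632 of 12065).

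The differences were small and the spread between animals was wide. The median size of the log2 fold change was 0.23, against 0.50 in Hampshire, and 402 genes (3.33%) differed by more than 2-fold, against 2325 (19.0%). The within-group SD of log2 CPM had a median of 0.39 in Pietrain and 0.30 in Hampshire, and the biological coefficient of variation was 0.327 and 0.256. For 6842 genes (56.7%), the 95% interval of the fold change lay within 2-fold in both directions, so a larger difference fell outside it, and for 1592 genes (13.2%) it lay within 1.5-fold. Precision moved with the level of a gene, as the 2-fold limit held for 0% of the 802 genes under 1 CPM, for 34.95% between 1 and 10 CPM, for 83.9% between 10 and 100 CPM, for 90.2% between 100 and 1000 CPM and for 88.7% above. The directions were nearly balanced, with a median log2 fold change of 0.02 and 52.4% of genes higher.

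**Figure D1:**
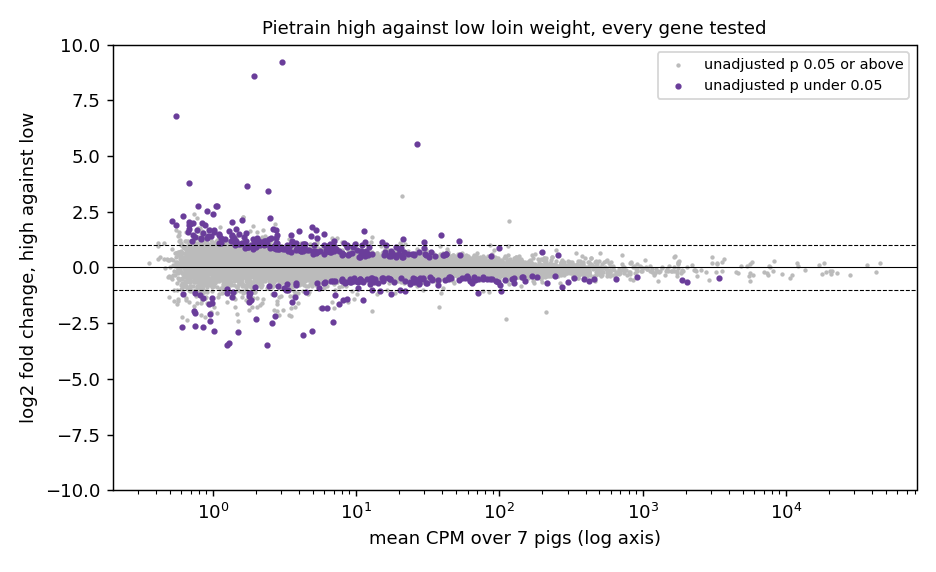
Each point is 1 of the 12065 genes tested, with its mean CPM over the 7 Pietrain pigs on a log axis and its log2 fold change of high against low loin weight; dashed lines mark 2-fold. Most genes lie within 2-fold, genes at an unadjusted p under 0.05 (398, 3.3%) are scattered over all levels, and the fitted fold changes of 3 genes with no read in any low pig are no bound.

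Pairs of pigs within a group and between groups had similar ranges of likeness. Pearson's correlation of log2 CPM across genes had a median of 0.931 over the 9 pairs within groups and of 0.934 over the 12 pairs between them. The median absolute difference of log2 CPM went the other way, at 0.38 within and 0.39 between groups. The first principal component held 26.3% of the variance and placed low pig 5 at 57.8 and high pig 6 at 35.4, opposite high pigs 7, 2 and 1 at -40.2, -32.4 and -22.0. Low pigs 3 and 8 stood at -15.7 and 17.2, so the groups overlapped (exact permutation test, p = 0.257). High pigs 6 and 7 stood at the ends of the second component (22.2% of the variance), at 50.0 and -44.7. The pigs farthest from the others were high pig 7, high pig 6 and low pig 5, with a mean of the median absolute differences of 0.47, 0.43 and 0.43 on the log2 scale, against 0.36 to 0.37 for the other 4 pigs.

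The slow fibre genes separated the animals, but not by loin weight. MYH7 (ENSSSCG00000002029, chromosome 7, 81066278 to 81088373 on Sscrofa10.2), which encodes the slow myosin heavy chain, was at 806, 6618, 354 and 6198 CPM in high pigs 1, 2, 6 and 7 and at 4388, 6.52 and 3135 CPM in low pigs 3, 5 and 8. The lowest and the highest pig thus differed 1014-fold, and the groups overlapped, with a log2 fold change of 0.48 ± 1.36 (SE). Another reference gives this identifier the symbol of the closely related MYH6, so reads of the 2 genes may not be separated. The slow troponin genes went the same way. TNNT1 was at 221, 1696, 148 and 1768 CPM in high pigs 1, 2, 6 and 7 and at 1412, 2.75 and 1184 CPM in low pigs 3, 5 and 8. TNNI1 was at 146, 1065, 78.5 and 1112 CPM in high pigs 1, 2, 6 and 7 and at 827, 3.77 and 666 CPM in low pigs 3, 5 and 8, and TNNC1 at 222, 1509, 138 and 1696 CPM in high pigs 1, 2, 6 and 7 and at 1347, 12.9 and 1162 CPM in low pigs 3, 5 and 8. In all 7 slow fibre genes tested, among them MYL3, the slow light chain, PLN, the inhibitor of the slow calcium pump, and MYH7B, low pig 5 was the lowest, followed by high pig 6 and then high pig 1.

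The median log2 fold change of the slow fibre list was 0.15, with 5 of 7 genes higher in pigs with high loin weight, and 0 of 7 passed an unadjusted p of 0.05. That direction depended on the animals, because without low pig 5 the median was -0.44 and 0 of 7 were higher, and without low pig 3 it was 0.70 and 7 of 7 were higher. It was also below 0 without high pig 2 (-0.27) or high pig 7 (-0.26), with 1 of 7 higher in each. Hampshire pigs spanned less, as MYH7 ranged 5.13-fold there, with 6559, 3387 and 5180.1 CPM in Hampshire high pigs 8, 9 and 10 and 1279, 3402 and 2031 CPM in Hampshire low pigs 1, 2 and 3. The difference between the ranges of the breeds was not tested.

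**Figure D2:**
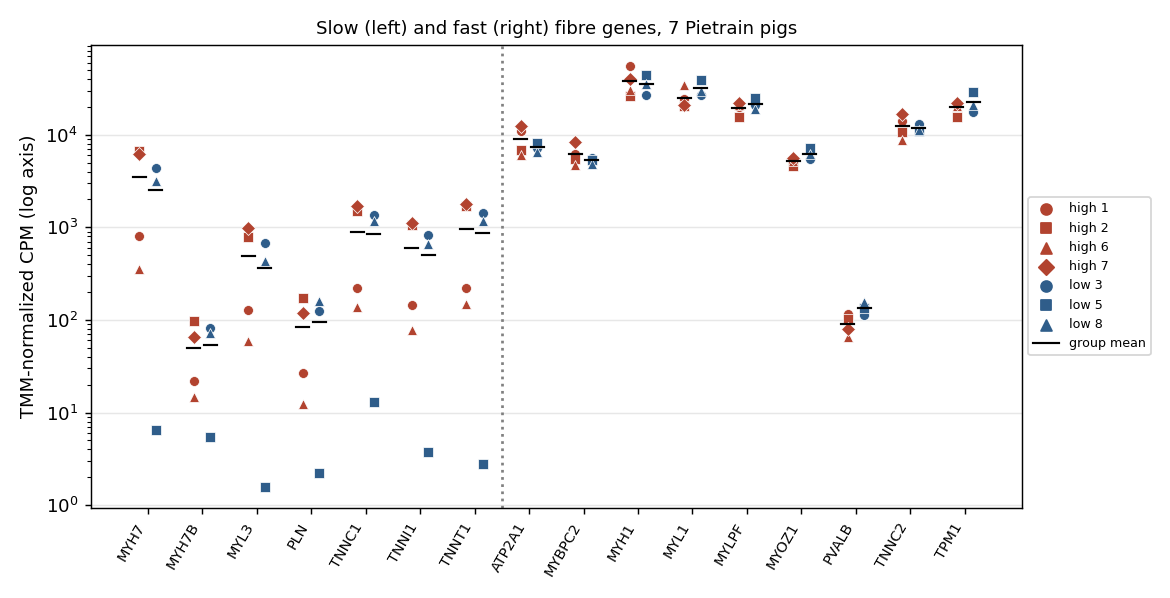
TMM-normalized CPM on a log axis of the 7 slow and 9 fast fibre genes in each of the 7 Pietrain pigs, 4 high (red) and 3 low (blue), with the group mean as a bar. Low pig 5 lies lowest in every slow fibre gene, at 6.52 CPM of MYH7 against 6618 CPM in high pig 2, while the fast fibre genes span at most 2.39-fold.

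The 9 of 14 listed fast fibre genes that matched were detected in every pig and varied little. MYH2, MYH4 and TNNT3, also typical of fast fibres, had no matched gene and are not covered. MYH1, named as a fast myosin heavy chain in the authors' tables and as MYH8 in the reference used here for names, was at 55651, 26307, 30294 and 39906 CPM in high pigs 1, 2, 6 and 7 and at 26769.7, 44380.1 and 35028 CPM in low pigs 3, 5 and 8, and its paralogs cannot be told apart with certainty. Of 9 fast fibre genes, 4 were higher and 5 lower, with a median of -0.14, and 8 had an interval within 2-fold. Without low pig 5 the median was 0.040. PVALB, the calcium-binding parvalbumin of fast fibres, was the 1 gene lower at an unadjusted p under 0.05, beside 1.4% of all genes. It was at 117, 103, 64.8 and 79.0 CPM in high pigs 1, 2, 6 and 7 and at 114, 134 and 155 CPM in low pigs 3, 5 and 8. The groups overlapped through high pig 1 (log2 fold change -0.57 ± 0.23 (SE), unadjusted p = 0.0315 in edgeR). ACTA1, the skeletal actin, and CKM, the muscle creatine kinase, were highest in high pig 7, at 75416 and 26964 CPM, and the other 6 pigs lay between 28322 and 46128 CPM and between 16580.1 and 17690.3 CPM.

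Among genes of excitation-contraction coupling, RYR1 (ENSSSCG00000002961, chromosome 6, 42840240 to 42960106) was higher in each pig with high loin weight. This gene encodes the calcium release channel of the sarcoplasmic reticulum, known in Pietrain pigs for its link to malignant hyperthermia. It was at 4794, 3624, 3726 and 4485 CPM in high pigs 1, 2, 6 and 7 and at 3290.1, 3331 and 2875 CPM in low pigs 3, 5 and 8. The groups did not overlap, with a 1.31-fold difference (log2 fold change 0.39 ± 0.18 (SE), unadjusted p = 0.0511 in edgeR, 95% interval -0.0022 to 0.79). Over the list of 13 genes, 8 were higher and the median was 0.09, which turned to -0.024 without high pig 7. CASQ1, the calcium buffer of the same store, differed by 0.02 (95% interval -0.38 to 0.43).

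Glycolytic genes had small differences in both directions. Of 20 glycolysis and glycogen genes, 10 were higher and 10 lower, with a median of -0.01 that lay on either side of 0 when 1 pig was left out, and all 20 had an interval within 2-fold. LDHA, lactate dehydrogenase A, was at 16051, 16967, 21462 and 17049 CPM in high pigs 1, 2, 6 and 7 and at 18506, 21121 and 22853 CPM in low pigs 3, 5 and 8, a log2 fold change of -0.22 (95% interval -0.60 to 0.16). PGK1, a glycolytic kinase, differed by -0.25 (95% interval -0.63 to 0.13).

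All 13 mitochondrially encoded genes were lower in pigs with high loin weight, with log2 fold changes from -0.63 to -0.23 and a median of -0.35. These genes share 1 genome and its transcripts, so they are not 13 separate measurements. ATP8, a subunit of ATP synthase, was at 2556, 3387, 3061 and 2725 CPM in high pigs 1, 2, 6 and 7 and at 3321, 4775 and 4012 CPM in low pigs 3, 5 and 8. It was the 1 member with an unadjusted p under 0.05 (log2 fold change -0.46 ± 0.19 (SE), unadjusted p = 0.0346 in edgeR), and its groups overlapped through high pig 2. At that level 1.4% of all genes were lower. COX1, with the most counts, was at 30987, 51575, 34053 and 41883 CPM in high pigs 1, 2, 6 and 7 and at 43808, 46019 and 49165 CPM in low pigs 3, 5 and 8, with -0.23 (95% interval -0.66 to 0.21). Low pig 5 was highest for 10 of the 13 genes and high pig 1 lowest for 10. All 13 remained lower when any 1 pig was left out, with medians from -0.43 to -0.23. The 36 nuclear genes of oxidative phosphorylation had a median of -0.10, with 28 lower and 8 higher and none at an unadjusted p under 0.05, and 33 had an interval within 2-fold. High pig 6 was lowest in 23 of them. In the list of fatty acid oxidation genes and PPAR targets, 15 of 23 were higher (median 0.17). At an unadjusted p under 0.05, 1 was higher, beside 1.9% of all genes. This was UCP3, mitochondrial uncoupling protein 3 (log2 fold change 1.21 ± 0.39 (SE), unadjusted p = 0.0109 in edgeR). It was at 27.5, 55.9, 79.4 and 115 CPM in high pigs 1, 2, 6 and 7. Low pigs 3, 5 and 8 had 30.8, 27.7 and 31.6 CPM, so the groups overlapped through high pig 1. The direction of the list turned without high pig 7, with 9 of 23 higher and a median of -0.095. It also turned without low pig 5, with 11 of 23 and -0.010. PDK4, the fasting-induced inhibitor of pyruvate dehydrogenase, was at 53.3, 339, 310.2 and 802 CPM in high pigs 1, 2, 6 and 7 and at 16.6, 582 and 1037 CPM in low pigs 3, 5 and 8, with no separation of the groups.

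Regulators of growth and breakdown held few members with a small p. In the list of IGF, insulin, AKT and mTOR genes, 10 of 23 were higher (median -0.04). At an unadjusted p under 0.05, 1 gene was higher and 1 lower, beside 1.9% and 1.4% of all genes. The median was 0.091 without high pig 2 and 0.042 without low pig 8, and 6 genes were higher at that level without high pig 6. The lower gene was PIK3R1 (ENSSSCG00000016958, chromosome 16, 50367103 to 50379440), the regulatory subunit of PI3 kinase, at 75.0, 42.6, 42.6 and 26.6 CPM in high pigs 1, 2, 6 and 7 and at 60.1, 143 and 106 CPM in low pigs 3, 5 and 8. Low pig 5 was highest and high pig 7 lowest, and the groups overlapped through high pig 1 and low pig 3 (log2 fold change -1.14 ± 0.36 (SE), unadjusted p = 0.00911 in edgeR). IGF2R, the receptor that clears IGF2, was the higher one, with 0.62 ± 0.27 (SE). MSTN itself, which encodes myostatin, was at 40.1, 16.8, 23.7 and 28.1 CPM in high pigs 1, 2, 6 and 7 and at 23.8, 59.0 and 31.8 CPM in low pigs 3, 5 and 8, a difference of -0.49 (95% interval -1.26 to 0.28) that includes 0.

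Of the 28 genes of the myostatin, activin, BMP and SMAD list, 18 were lower and 10 higher (median -0.17). Without low pig 3 the list turned, with 15 of 28 higher and a median of 0.041. SMAD2, a signal transducer of myostatin and activin, was at 5.02, 4.90, 5.53 and 3.36 CPM in high pigs 1, 2, 6 and 7 and at 6.87, 9.43 and 6.52 CPM in low pigs 3, 5 and 8. Every high pig lay below every low pig (log2 fold change -0.69 ± 0.27 (SE), unadjusted p = 0.0287 in edgeR). In the FOXO, glucocorticoid and atrophy list, 13 of 17 were higher (median 0.21), 2 of them at an unadjusted p under 0.05 beside 1.9% of all genes. That count was 0 without low pig 3, low pig 5 or high pig 7 and 5 without high pig 6. FBXO32, the muscle ubiquitin ligase atrogin-1, was at 46.5, 18.4, 29.0 and 120.4 CPM in high pigs 1, 2, 6 and 7 and at 16.1, 17.1 and 26.1 CPM in low pigs 3, 5 and 8. High pigs 7 and 1 were highest, and high pig 2 lay below low pig 8 (log2 fold change 1.44 ± 0.55 (SE), unadjusted p = 0.0253 in edgeR). Without high pig 7 the log2 fold change was 0.66. FOXO3 was the other, with 0.89 ± 0.39 (SE), and TRIM63, the second muscle ubiquitin ligase, differed by 0.23 (95% interval -0.38 to 0.84).

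Of 13 myogenic and satellite cell genes, 10 were higher (median 0.21). MYF5, a satellite cell transcription factor, was at 0.824, 0.805, 0.405 and 1.71 CPM in high pigs 1, 2, 6 and 7 and at 0.258, 0.314 and 0 CPM in low pigs 3, 5 and 8. The high pigs lay above the low pigs, but at under 2 CPM each value rests on few reads (log2 fold change 2.30 ± 0.85 (SE), unadjusted p = 0.0213 in edgeR). Since MYF5 passed the filter only through high pigs, its separation and p are no support for a difference. MYH3, the embryonic myosin, was at 128, 603, 215 and 673 CPM in high pigs 1, 2, 6 and 7 and at 256, 224 and 291 CPM in low pigs 3, 5 and 8, so high pigs 2 and 7 stood above all others while high pig 1 was the lowest of the 7.

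The genes with a symbol and the smallest unadjusted p, 12 in each direction, included regulators of signalling and stress. ADCY6 (ENSSSCG00000000175, chromosome 5, 15129052 to 15145294), an adenylyl cyclase, was at 6.89, 9.29, 9.31 and 9.93 CPM in high pigs 1, 2, 6 and 7 and at 4.29, 5.19 and 3.96 CPM in low pigs 3, 5 and 8. All 4 high pigs exceeded all low pigs (log2 fold change 0.98 ± 0.25 (SE), unadjusted p = 0.00256 in edgeR). ZFYVE28, an endosomal protein, was at 1.27, 1.76, 0.742 and 1.87 CPM in high pigs 1, 2, 6 and 7 and at 0.172, 0.393 and 0.139 CPM in low pigs 3, 5 and 8, again without overlap though with few reads in the low pigs (log2 fold change 2.55 ± 0.61 (SE), unadjusted p = 0.00168 in edgeR). ZFYVE28 passed the filter only through the high pigs, so its separation and p are no support for a difference. PEBP4 (chromosome 14, 7446930 to 7698221) encodes a phosphatidylethanolamine-binding protein. It was at 256, 209, 231 and 253 CPM in high pigs 1, 2, 6 and 7 and at 149, 112 and 182 CPM in low pigs 3, 5 and 8, without overlap (log2 fold change 0.68 ± 0.20 (SE), unadjusted p = 0.00652 in edgeR). SLC25A34, a mitochondrial carrier, was at 6.89, 10.6, 4.52 and 11.1 CPM in high pigs 1, 2, 6 and 7 and at 3.18, 1.97 and 3.54 CPM in low pigs 3, 5 and 8 (log2 fold change 1.51 ± 0.38 (SE), unadjusted p = 0.00231 in edgeR).

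The other higher genes of this set were RETSAT, retinol saturase (log2 fold change 1.33), ECM1, an extracellular matrix protein (1.06), TAF1C, a subunit of the RNA polymerase I initiation factor (1.31), CU571095.1 (1.06) and 3 genes linked to antiviral responses, DHX58 (2.40), GBP4 (1.70) and ZNFX1 (0.84). PON2, a paraoxonase, was at 7.19, 5.20, 1.15 and 0 CPM in high pigs 1, 2, 6 and 7 and had no read in any low pig. Against the floor of 3 reads over the 3 low libraries, its mean was at least 43.7-fold higher, yet high pig 7 was also at 0. That bound allows for counting noise and not for the spread between pigs. PON2 passed the filter only through the other high pigs, so its p and this bound are no support for a difference.

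Among the lower genes, DDIT3 (ENSSSCG00000022482), which encodes the stress-induced factor CHOP, was at 10.3, 11.2, 15.0 and 8.86 CPM in high pigs 1, 2, 6 and 7 and at 23.4, 37.6 and 16.7 CPM in low pigs 3, 5 and 8. Every high pig lay below every low pig (log2 fold change -1.19 ± 0.29 (SE), unadjusted p = 0.00204 in edgeR), and the fold change was -0.82 without low pig 5. KCTD6 (ENSSSCG00000022131, chromosome 13, 44223067 to 44230736) was at 27.1, 21.6, 26.7 and 24.0 CPM in high pigs 1, 2, 6 and 7 and at 37.4, 42.3 and 40.9 CPM in low pigs 3, 5 and 8. The highest high pig lay well below the lowest low pig (log2 fold change -0.69 ± 0.17 (SE), unadjusted p = 0.00235 in edgeR). ATP1B1 (chromosome 4, 89529321 to 89550560), the beta subunit of the sodium pump, was at 239, 279.6, 228 and 228 CPM in high pigs 1, 2, 6 and 7 and at 309, 405 and 436 CPM in low pigs 3, 5 and 8, also without overlap (log2 fold change -0.65 ± 0.18 (SE), unadjusted p = 0.00500 in edgeR). PHYH, the peroxisomal enzyme that starts phytanic acid breakdown, was at 195, 214, 171 and 225 CPM in high pigs 1, 2, 6 and 7 and at 248, 389 and 479 CPM in low pigs 3, 5 and 8 and did not overlap either (log2 fold change -0.89 ± 0.23 (SE), unadjusted p = 0.00302 in edgeR).

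The remaining lower genes were GPX2, a glutathione peroxidase (log2 fold change -2.19, highest in low pigs 5 and 8), PIGH (-0.76), NSUN3, a mitochondrial tRNA methyltransferase (-0.66), CXXC5 (-0.60), PNCK, a calmodulin-dependent kinase (-0.69), CNRIP1 (-0.63) and INSIG1, the sterol sensor (-0.996), besides PIK3R1. Of all genes tested, the smallest unadjusted p belonged to an identifier without a symbol, ENSSSCG00000025475, singled out after its values were seen, which is also the DEG of DESeq2. It was at 0.599, 0.732, 0.202 and 0.267 CPM in high pigs 1, 2, 6 and 7 and at 1.63, 8.88 and 4.30 CPM in low pigs 3, 5 and 8. The groups did not overlap (log2 fold change -3.46 ± 0.63 (SE), unadjusted p = 0.000227 and adjusted p = 0.939 in edgeR, adjusted p = 0.00258 in DESeq2). In Pietrain too the gene passed the filter only through the low pigs, where it is high, so these values are no support for a difference. In Hampshire it was at 0, 0.260 and 0 CPM in high pigs 8, 9 and 10 and at 1.26, 0.648 and 0.868 CPM in low pigs 1, 2 and 3. With so few reads it passed the filter there only through the low pigs, and no fold change is given.

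**Figure D3:**
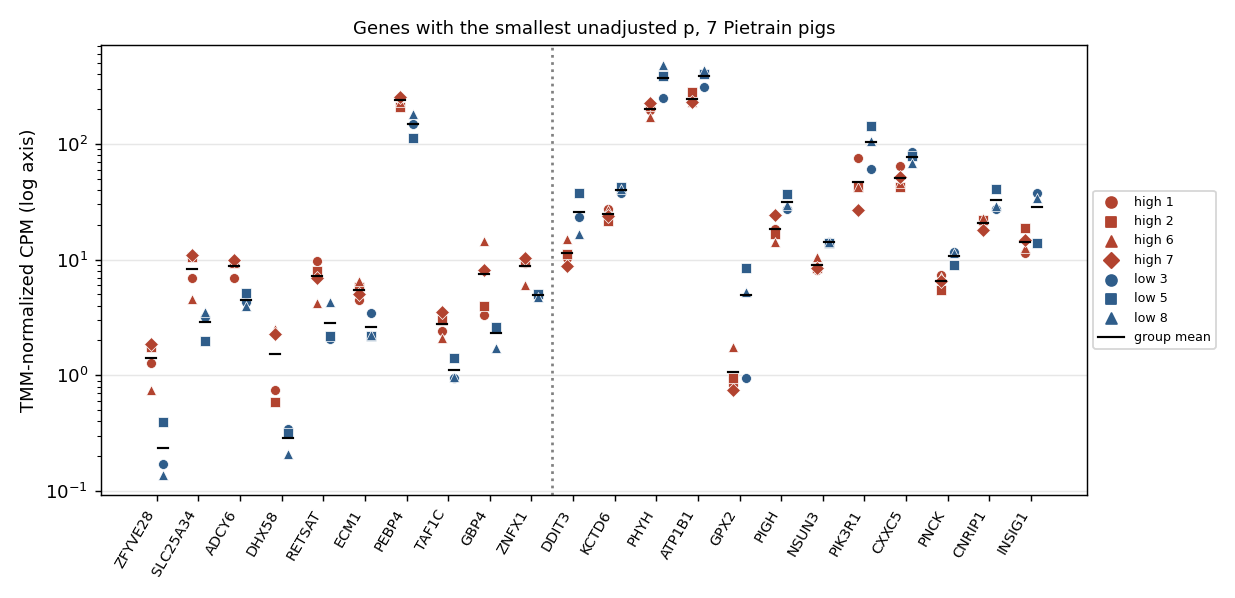
TMM-normalized CPM on a log axis of 10 higher (left of the dotted line) and 12 lower genes with the smallest unadjusted p in each of 4 high (red) and 3 low (blue) Pietrain pigs, with group means as bars; PON2 and CU571095.1 are left out. The groups are separate for KCTD6, ATP1B1 and PHYH, while single pigs cross over for RETSAT, GPX2, PIK3R1 and INSIG1.

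Connective tissue genes tended to lie higher in pigs with high loin weight, without a member past the test. All 15 collagen chains were higher, with log2 fold changes from 0.10 to 0.76 and a median of 0.49, beside 0.02 over all genes. None had an unadjusted p under 0.05 and in none were the groups separate. COL3A1, a chain of fibrillar collagen in the muscle sheaths, was at 611, 1043, 1198 and 447 CPM in high pigs 1, 2, 6 and 7 and at 790.3, 484 and 428 CPM in low pigs 3, 5 and 8. The low values belonged to low pigs 5 and 8 and high pig 7, whereas low pig 3 lay within the high group. Without low pig 5 the median was 0.21 and without low pig 3 it was 0.95, with 15 of 15 higher in each. Without low pig 8, 12 of 15 were higher, and without high pig 6, 13 of 15.

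Of 34 matrix glycoproteins, proteoglycans and processing enzymes, 25 were higher (median 0.25). At an unadjusted p under 0.05, 2 were higher, beside 1.9% of all genes. FBLN1, fibulin 1, was at 8.16, 6.00, 3.78 and 4.54 CPM in high pigs 1, 2, 6 and 7 and at 3.52, 1.18 and 0.694 CPM in low pigs 3, 5 and 8, with every high pig above every low pig (log2 fold change 1.65 ± 0.53 (SE), unadjusted p = 0.0105 in edgeR). Without low pig 3 its log2 fold change was 2.598. On its low pigs alone FBLN1 would not have passed the filter, so its separation and p are no support for a difference. THBS2, thrombospondin 2, spread over both groups, at 5.39, 4.98, 59.9 and 3.42 CPM in high pigs 1, 2, 6 and 7 and at 58.4, 129 and 2.36 CPM in low pigs 3, 5 and 8, and followed neither group. In the 13 laminin and basement membrane genes 8 were higher (median 0.24), and in the 12 fibroblast genes 7 (median 0.07). Of the fibroblast genes, 1, SFRP2, was higher at an unadjusted p under 0.05, beside 1.9% of all genes. The fibroblast median turned to -0.12 without low pig 5, with 5 of 12 higher, and to -0.021 without high pig 2. All 4 tendon genes were higher (median 0.54). THBS4, which is also in the matrix list, was the 1 at an unadjusted p under 0.05, beside 1.9% of all genes. High pig 1 was highest in all 4, and without it the tendon median was 0.14. Of 13 smooth muscle and pericyte genes 8 were higher (median 0.02), of 14 endothelial genes 10 (median 0.16) and of 4 nerve and Schwann cell genes 3 (median 0.10). Without low pig 5, 5 of 14 endothelial genes (median -0.21) and 4 of 13 smooth muscle genes (median -0.26) were higher. Without high pig 2, 3 of 13 smooth muscle genes (median -0.13) and 2 of 4 nerve genes were higher.

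Fat cell genes were led by PLIN1, which coats the lipid droplet, at 4.04, 2.49, 0.945 and 0.641 CPM in high pigs 1, 2, 6 and 7 and at 0.515, 0.393 and 0.555 CPM in low pigs 3, 5 and 8. The groups did not overlap, although high pigs 6 and 7 were close to the low pigs (log2 fold change 2.02 ± 0.69 (SE), unadjusted p = 0.0145 in edgeR). Because PLIN1 passed the filter only through high pigs, its separation and p are no support for a difference. FASN and SCD, enzymes of fatty acid synthesis and desaturation, were highest in high pigs 1 and 2. FASN was at 17.6, 15.2, 3.04 and 3.74 CPM in high pigs 1, 2, 6 and 7 and at 7.38, 1.73 and 2.78 CPM in low pigs 3, 5 and 8, and SCD at 197, 176, 38.9 and 29.6 CPM in high pigs 1, 2, 6 and 7 and at 63.5, 60.7 and 41.6 CPM in low pigs 3, 5 and 8. Of 14 adipocyte genes, 12 were higher (median 0.59), and high pig 1 was highest in 6. At an unadjusted p under 0.05, 2 were higher, PLIN1 among them, beside 1.9% of all genes. The count was 0 without high pig 2 and 5 without high pig 7. Without high pig 1 the median was 0.31. The summed adipocyte markers lay between 2.19 and 11.5 CPM in the high and between 2.66 and 3.07 CPM in the low pigs, and their part in these values was not tested.

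Immune genes had their highest levels in high pigs 6 and 7. All 19 macrophage and antigen presentation genes were higher (median 0.61), 4 of them at an unadjusted p under 0.05 beside 1.9% of all genes. High pig 6 was highest in 10 and high pig 7 in 8 of the 19. CD68, a lysosomal protein of macrophages, was at 2.10, 3.22, 6.48 and 1.98 CPM in high pigs 1, 2, 6 and 7 and at 1.03, 1.02 and 2.01 CPM in low pigs 3, 5 and 8, with overlap (log2 fold change 1.33 ± 0.52 (SE), unadjusted p = 0.0268 in edgeR), and its log2 fold change was 0.84 without high pig 6. C1QA, a chain of complement C1q made by macrophages, was at 5.32, 16.5, 10.19 and 18.5 CPM in high pigs 1, 2, 6 and 7 and at 7.13, 3.07 and 7.98 CPM in low pigs 3, 5 and 8. Without high pig 6, 16 of 18 genes were higher and the median was 0.37, and 1 of them had an unadjusted p under 0.05. Without low pig 5, 17 of 19 were higher and 0 had an unadjusted p under 0.05. The summed macrophage markers were at 3.89 to 8.44 CPM in the high and at 2.75 to 4.46 CPM in the low pigs, and their part in the list's values was not tested.

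Complement genes shared 3 members with that list, and 12 of 15 were higher (median 0.57), 4 at an unadjusted p under 0.05 beside 1.9% of all genes. That count was 0 without low pig 5 and 2 without high pig 2, 6 or 7 or low pig 8. C1R, the protease of the C1 complex, was at 23.4, 23.3, 31.0 and 29.9 CPM in high pigs 1, 2, 6 and 7 and at 22.1, 16.9 and 14.8 CPM in low pigs 3, 5 and 8, all high pigs above all low pigs (log2 fold change 0.58 ± 0.22 (SE), unadjusted p = 0.0219 in edgeR). SERPING1, its inhibitor, differed by 0.39 (95% interval -0.03 to 0.81) and overlapped. Of 9 lymphocyte and mast cell genes 7 were higher (median 0.25), and high pig 6 was highest in 7. NKG7 was the 1 at an unadjusted p under 0.05, beside 1.9% of all genes. On its low pigs alone NKG7 would not have passed the filter, so that p is no support for a difference. Without high pig 6, 2 of the 7 genes still tested were higher, with a median of -0.038 and 0 at that level. Of 28 interferon response genes 24 were higher (median 0.44), and high pig 6 was highest in 19. At an unadjusted p under 0.05, 2 were higher, beside 1.9% of all genes. MX2, an antiviral GTPase, was at 2.47, 1.61, 8.77 and 2.30 CPM in high pigs 1, 2, 6 and 7 and at 1.55, 0.157 and 0.763 CPM in low pigs 3, 5 and 8, with all high pigs above the low ones (log2 fold change 2.21 ± 0.77 (SE), unadjusted p = 0.0162 in edgeR), and its log2 fold change was 1.39 without high pig 6. MX2 too would not have passed the filter on its low pigs alone, so its separation and p are no support for a difference. Without high pig 6, 19 of the 28 interferon response genes were higher, the median was 0.18 and none of the higher genes had an unadjusted p under 0.05. That count was also 0 without low pig 5 and 7 without high pig 1. The 2 blood genes tested, HBB and ALAS2, differed by 0.11 and -0.30, with overlap and with a median that turned to 1.11 without low pig 3.

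SPP1, osteopontin, a matrix protein made by macrophages and regenerating muscle, was a single-animal signal. It was at 0.674, 0.659, 182 and 0.748 CPM in high pigs 1, 2, 6 and 7 and at 1.29, 1.10 and 0.555 CPM in low pigs 3, 5 and 8. Its log2 fold change of 5.56 ± 2.12 (SE) rested on high pig 6 alone, and without that pig the gene no longer passed the filter.

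**Figure D4:**
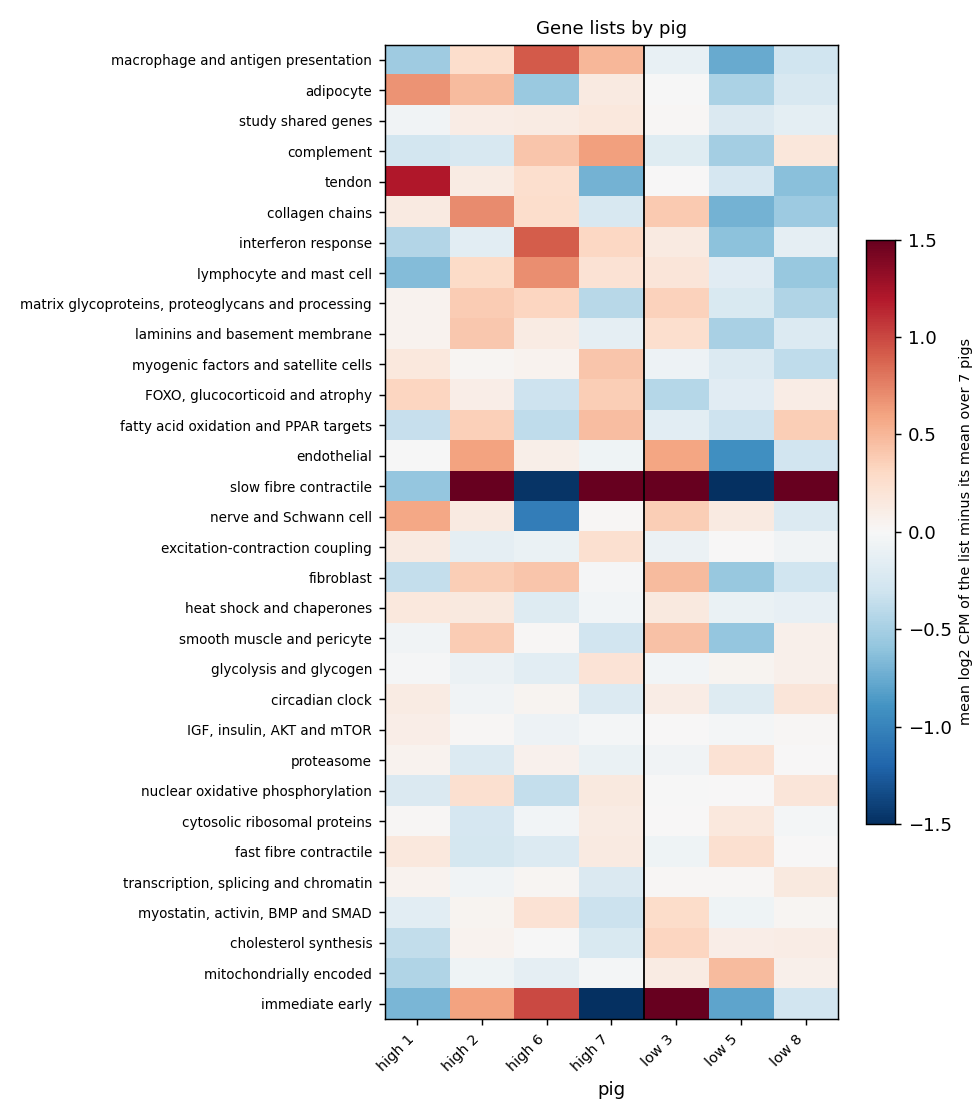
Mean log2 CPM of each gene list per pig, minus the mean of the list over the 7 Pietrain pigs, with high pigs left and low pigs right of the line; rows are ordered by the median log2 fold change, and the colour scale ends at 1.5. High pig 6 is high in immune lists, low pig 5 is low in collagen, endothelial and slow fibre lists, and the slow fibre list passes the ends of the scale, at -5.51 in low pig 5 and 2.14 in high pig 2.

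Intervals were narrow for genes of protein synthesis and turnover. Of 33 cytosolic ribosomal proteins, 24 were lower and 9 higher, with a median of -0.11, and all 33 had an interval within 2-fold. RPLP1, with the most counts, was at 2380.4, 1559.7, 1744 and 2599 CPM in high pigs 1, 2, 6 and 7 and at 2174, 2032 and 1849 CPM in low pigs 3, 5 and 8, a difference of 0.04 (95% interval -0.44 to 0.51). The 26 proteasome genes had a median of -0.10, with 19 lower, and all 26 had an interval within 2-fold. Among 20 heat shock genes 13 were higher (median 0.03, and -0.014 without high pig 1), and HSPA8, the constitutive chaperone, differed by -0.18 (95% interval -0.56 to 0.21). Of 33 transcription, splicing and chromatin genes 24 were lower (median -0.14), 2 of them at an unadjusted p under 0.05 beside 1.4% of all genes. That count was 0 without any 1 of high pigs 1, 2 and 7 and low pigs 5 and 8.

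In the cholesterol synthesis list 16 of 21 genes were lower (median -0.17), 3 of them at an unadjusted p under 0.05 beside 1.4% of all genes. That count was 1 without high pig 1, low pig 3, low pig 5 or high pig 7, and 5 without high pig 6. INSIG1 was at 11.3, 18.6, 12.7 and 14.6 CPM in high pigs 1, 2, 6 and 7 and at 37.7, 13.9 and 34.0 CPM in low pigs 3, 5 and 8, and low pig 5 lay within the high group. HMGCS1, an early enzyme of the pathway, was at 48.5, 56.4, 65.3 and 38.1 CPM in high pigs 1, 2, 6 and 7 and at 72.6, 74.0 and 69.8 CPM in low pigs 3, 5 and 8, with all high pigs below the low ones (log2 fold change -0.47 ± 0.20 (SE), unadjusted p = 0.0426 in edgeR). The 16 circadian clock genes had a median of -0.04, 10 of them lower, which turned to 0.022 without low pig 3 and to 0.0082 without high pig 7, and DBP, an output factor of the clock, differed by -0.65 ± 0.29 (SE).

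Immediate early genes, which respond within minutes to stimuli, varied widely between animals. FOS was at 54.9, 66.7, 247 and 4.97 CPM in high pigs 1, 2, 6 and 7 and at 1072, 30.5 and 15.1 CPM in low pigs 3, 5 and 8, a 216-fold range. Low pig 3 was highest in 13 of the 16 genes and high pig 7 lowest in 10. The median of -0.57, with 12 of 16 lower, turned to 0.58 without low pig 3.

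In a list of 43 genes picked on these same pigs as changed in both breeds, 25 were higher and 18 lower. At an unadjusted p under 0.05 there were 11 in each direction, beside 1.9% of all genes higher and 1.4% lower. Those counts were lowest at 5 higher, without low pig 5, and 5 lower, without high pig 2 or 7. The list is thus no independent evidence of a direction. Its smallest p in the higher direction belonged to RAB3IL1, an exchange factor for Rab proteins, at 2.85, 3.07, 3.78 and 4.54 CPM in high pigs 1, 2, 6 and 7 and at 1.89, 1.65 and 1.53 CPM in low pigs 3, 5 and 8. TSPO, a mitochondrial outer membrane protein, was at 3.30, 3.66, 3.37 and 3.84 CPM in high pigs 1, 2, 6 and 7 and at 2.58, 1.89 and 1.46 CPM in low pigs 3, 5 and 8, and in both genes every high pig was above every low pig. Members that kept the study's direction included UCP3 (log2 fold change 1.21), the study's most up-regulated gene. The lower members CYP51A1 (-0.69), PIGX (-0.62), XPO1 (-0.47) and RNF19A (-0.46) kept it too. Other members ran against the study's direction. The study lists ATF5 and CNRIP1 with positive fold changes in Pietrain, while their log2 fold changes here were -1.04 and -0.63. The cause of that mismatch was not tested.

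Whether the effect of loin weight in Pietrain differed from that in Hampshire was tested as an interaction over all 13 pigs. It passed an adjusted p of 0.05 for 757 of 12831 genes (5.9%) in edgeR. Among the lists, the ribosomal proteins had the largest share of such genes, with 23 of 33 called, all 23 relatively lower in Pietrain. The median log2 fold change was -0.11 in Pietrain and 0.94 in Hampshire. RPS20 was at 451, 407, 478 and 487 CPM in high pigs 1, 2, 6 and 7 and at 481, 569.9 and 503 CPM in low pigs 3, 5 and 8, and Hampshire had 875, 1116 and 782 CPM in Hampshire high pigs 8, 9 and 10 and 463, 439.8 and 405 CPM in Hampshire low pigs 1, 2 and 3. The Hampshire groups were far apart and the Pietrain groups overlapped, with a difference between the breeds of -1.31 (adjusted p = 0.00796 in edgeR).

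Several of the genes named for a small p in Pietrain passed this interaction test. The test uses the same Pietrain values by which they were named, so it is no separate evidence. ZNFX1 was at 9.36, 9.59, 6.07 and 10.3 CPM in high pigs 1, 2, 6 and 7 and at 5.07, 5.03 and 4.72 CPM in low pigs 3, 5 and 8, while Hampshire had 2.503, 1.39 and 1.94 CPM in Hampshire high pigs 8, 9 and 10 and 5.68, 9.26 and 7.81 CPM in Hampshire low pigs 1, 2 and 3. Pigs with high loin weight were thus higher in Pietrain and lower in Hampshire (difference 2.75, adjusted p = 0.00283 in edgeR). KCTD6, lower in Pietrain, had 19.1, 20.3 and 32.3 CPM in Hampshire high pigs 8, 9 and 10 and 17.6, 14.7 and 18.0 CPM in Hampshire low pigs 1, 2 and 3 (difference -1.24, adjusted p = 0.0187). DDIT3 differed by -2.78 between breeds (adjusted p = 0.0289) and FBXO32 by 2.65 (adjusted p = 0.0421). No collagen, macrophage, adipocyte, slow fibre or mitochondrially encoded gene passed that test. For collagen chains the medians were 0.49 and 0.93, and for macrophage genes 0.61 and 1.07, in Pietrain and Hampshire.

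**Figure D5:**
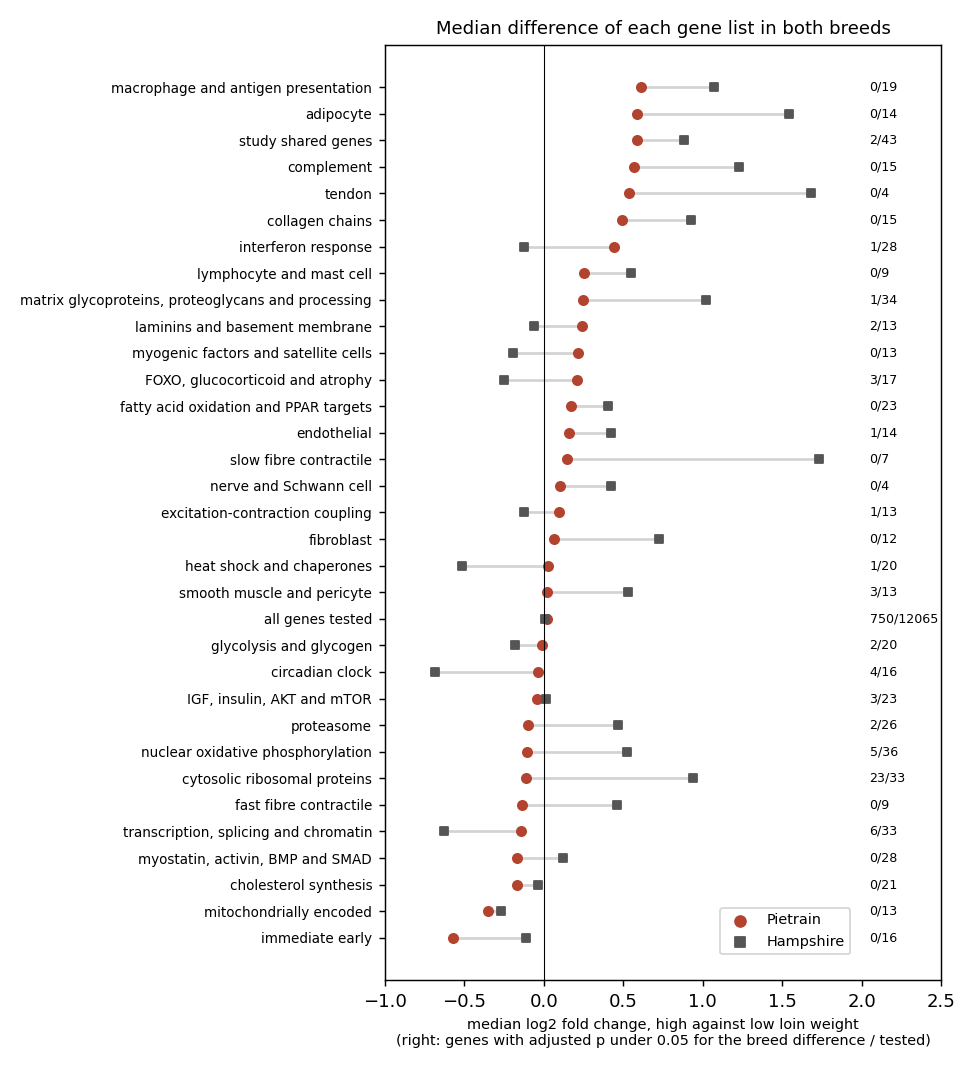
Median log2 fold change of each gene list for high against low loin weight in Pietrain (circles) and Hampshire (squares), with the number of genes past an adjusted p of 0.05 for the difference between breeds over those tested at the right. The largest count is that of the cytosolic ribosomal proteins, 23 of 33, with medians of -0.11 and 0.94.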

How the data were processed

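RNA from longissimus lumborum of 13 pigs was sequenced by the authors as TruSeq cDNA libraries in single-end runs with technical repetitions, and the tables used here hold 1 column per pig. The authors deposited 1 table a breed of raw read counts for Ensembl genes, without normalization. The labels name FastQC, STAR, RSEM and DESeq2 and the Sscrofa10.2 build, with no versions. The counts are whole numbers, and whether RSEM estimates were rounded is not given in the sources used here. From the authors' tables of their own DESeq2 comparisons, only gene symbols and coordinates (Sscrofa10.2) were used. The fold changes and p-values in them were not used. Of 25322 identifiers, 7066 had a symbol in those tables and 13150 after adding reference names, and 585 of 705 listed symbols matched. Reference and authors' symbols differed for 292 identifiers, and the authors' symbol was kept. Unmatched symbols were not analysed here.

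The labels put 4 Pietrain pigs in the high group while the study's carcass table lists 3, and all 4 were used. Counts were tested in R 4.3.3 with edgeR 4.0.16 (TMM, filterByExpr by group, glmQLFit, glmQLFTest) in the 7 Pietrain pigs alone. SE is the log2 fold change over the square root of F, and 95% intervals use its t distribution. A DEG differed by 1.2-fold or more, with a p below 0.05 after Benjamini-Hochberg adjustment. The interaction of breed and loin weight was fitted over all 13 pigs. Log2 CPM used a prior count of 0.5 for principal components. Single values per pig were compared by an exact permutation test over 35 splits. Levels of different genes are not per length, so they are compared only between pigs. Alternatives used DESeq2 1.42.0, its size factors, limma 3.58.1 voom with sample quality weights, robust dispersion, other filters, 1 fit over 13 pigs and leaving out each pig. Tests were checked on simulated counts. All pairs of Pietrain pigs differed by more than sampling noise, so each pig was 1 replicate. Chi-square over degrees of freedom was at least 35.6 within groups and at least 25.4 between them. The labels give no batch. Tables were joined in Python 3.11.15 and figures drawn with matplotlib 3.10.9.

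Genes were named by rule, as the 12 with a symbol and the smallest p in each direction, the 10 with the highest CPM, the members with the smallest p and the highest CPM in each list, the 10 with the widest spread, 10 of the study's shared genes, and 10 by their coefficient on the first component. Other list members given as examples were chosen after their values were seen. The gene lists and this choice were made with earlier results of these data known. A list of liver genes and the slow fibre score as a covariate were added after seeing the data. Lists are described by counts and medians, with no set test.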

Additional observations from a re-analysis of the deposited data

Results flagged for a closer look

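Some values stood apart within the 4 high pigs, by a gap to the nearest pig that was large against the range of the group. In high pig 6 these were SPP1, at 182 CPM where the other high pigs lay between 0.659 and 0.748, THBS2, at 59.9 CPM where they lay between 3.42 and 5.39, and MX2, at 8.77 CPM where they lay between 1.61 and 2.47. In high pig 2 they were GLUL, glutamine synthetase, at 618 CPM against 380.1 to 409 CPM, and NDUFB3, a complex I subunit, at 146 CPM against 113 to 118 CPM. In high pig 7 they were CKM, at 26964 CPM against 16580.1 to 17690.3 CPM, MVP, the major vault protein, at 41.1 CPM against 16.6 to 20.2 CPM, and the total count of 20134612 reads against 12833982 to 13709481. These are 8 of 149 series of values examined, and chance alone flags about 1 in 20 groups of unselected values. The genes were not unselected, as SPP1 was named for its wide spread and THBS2 by its coefficient on the first component. The share flagged therefore cannot be judged against that rate.

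The effect of loin weight differed between breeds by the interaction test of edgeR for 10 of the named genes. The adjusted p was 0.00283 for ZNFX1, 0.0131 for PNCK, 0.0187 for KCTD6, 0.0289 for DDIT3, 0.0325 for CNRIP1, 0.0335 for PHYH, 0.0370 for ADCY6, 0.0421 for FBXO32, 0.0481 for GPX2 and 0.0498 for MX2. For PON2 the same test gave 0.0159, but the gene had no read in any low Pietrain pig or in high pig 7, passed the filter only through the other high pigs and was not tested within Hampshire, so no difference between breeds is read from it. These genes were named for their small p in Pietrain or as list members, and 5.9% of all genes passed the same test. The interaction uses the Pietrain values that led to the choice, so these results are not independent of it.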

How the results depend on the processing

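No gene passed the threshold in edgeR when any 1 pig was left out (0 in each case), while DESeq2 called 1. At an unadjusted p under 0.05, the count of higher genes lay between 118 and 774 and that of lower genes between 88 and 426 when 1 pig was left out, lowest without low pig 5 and highest without high pig 6. The counts of higher and lower genes were 383 and 313 of 18221 with no filter and 379 and 348 of 12831 in 1 fit over 13 pigs. They were 641 and 632 of 12065 with sample quality weights in limma voom, and with at least 10 counts in every pig 109 of 10264 were lower. The difference between breeds held for 1242 genes in DESeq2 and for 489 to 1052 genes without 1 pig, with 489 without low pig 5 and 494 without low pig 8. With the slow fibre score as covariate, added after seeing the data, 0 genes were called, 193 were higher and 141 lower. The cause of these shifts was not tested.

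Directions reversed with quality weights for DCTN2 (-0.037), FOS (0.22), B2M (-0.077), PTPRC (-0.11) and PSMD2 (-0.037), and in 1 fit over 13 pigs for CASQ1 (-0.013) and PSMD2 (-0.00135). The same weights kept the direction of slow fibre genes but moved MYH7 to 1.48, MYL3 to 1.32, TNNT1 to 1.06 and TNNI1 to 0.92. Without 1 pig, log2 fold changes ranged from -0.11 to 0.40 for ACTA1, -0.84 to 0.96 for ALAS2, -0.040 to 0.38 for B2M, -0.55 to 1.72 for BTG2, -0.058 to 0.14 for CASQ1, -0.34 to 0.84 for DCTN2, -0.19 to 0.0031 for FDFT1, -3.13 to 2.06 for FOS, -0.061 to 0.33 for GLUL, -0.39 to 1.27 for HBB, -0.12 to 0.30 for MYH1, -0.11 to 1.16 for MYH7, -0.17 to 1.205 for MYL3, -1.22 to 0.33 for PDK4, -0.29 to 0.36 for PECAM1, -0.057 to 0.12 for PSMD2, -0.14 to 0.55 for PTPRC, -0.091 to 0.17 for RPLP1, -0.063 to 0.33 for S100B, -0.49 to 0.61 for TNNC1, -0.31 to 0.85 for TNNI1, -0.44 to 0.70 for TNNT1 and -0.30 to 0.065 for TPM1. No paired analysis was possible because the high and low Pietrain groups share no replicate number. Of the 802 genes under 1 CPM, 0% had an interval within 2-fold.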

Other observations

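Genes typical of liver were detected in the muscle libraries and varied widely between pigs. Of 27 listed symbols, chosen after other results of these data were known, 20 symbols with 21 identifiers were tested. ALB, serum albumin, was at 0.300, 9.73, 26.5 and 127 CPM in high pigs 1, 2, 6 and 7 and at 55.5, 129 and 428 CPM in low pigs 3, 5 and 8. The 21 identifiers summed to 16.3 CPM in high pig 1 and to 718 CPM in low pig 8. High pig 1 was lowest for 16 of the 21 and low pig 8 highest for 18, and the groups overlapped for all 21. The 1 identifier with an unadjusted p under 0.05 in edgeR's quasi-likelihood test was ENSSSCG00000015070, named APOA1, an apolipoprotein, with a log2 fold change of -1.55, while a second identifier of that symbol, ENSSSCG00000030921, differed by -0.21.

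A set of 28 genes had no read in at least 1 pig and at least 10 CPM in another, and 9 of them had a symbol. DCTN2, a dynactin subunit, was at 0 in high pig 6 and between 8.604 and 55.4 CPM in the other 6. ENSSSCG00000029441, without a symbol, was at 0 in high pig 1 and between 599 and 2139 CPM in the others. PPP1R11 (ENSSSCG00000024259) was at 0 in high pigs 2 and 7 and between 14.2 and 22.5 CPM elsewhere, while a second identifier of that symbol, ENSSSCG00000028347, was at 25.4 and 29.5 CPM in those 2 pigs and between 1.67 and 13.0 CPM in the others.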
